A study of Mus musculus with 8 samples.

Results

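The 9 genes described here encode membrane proteins and fall into 2 groups: the planar polarity genes Celsr1, Celsr2, Celsr3, Vangl2 and Fzd3, and the teneurins Tenm1, Tenm2, Tenm3 and Tenm4. They were chosen by name, from a list drawn up with earlier results of these same libraries in view, namely the differences between the genotypes and between the ages. Their fold changes and calls are therefore given as a description of these libraries, without p-values. All 9 were found among the 34299 genes of the count table, and all 9 passed the filter on low counts in both comparisons.

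The data are 8 RNA-seq libraries of polyadenylated RNA from whole mouse brain. Brains of day 15 fetuses came from wild-type (WT) mice and from mice knocked out (KO) for Cav1, which encodes caveolin 1, a protein of membrane pits (3 libraries each). A further 2 libraries came from Cav1 KO brain at week 70. The labels name no treatment for any group, and they give neither the strain, the way the Cav1 allele was made, the litter nor the sex, and WT brain at week 70 was not analysed here. The labels call the fetal libraries biological replicates but do not say the same of the week 70 pair, so what its spread measures is not known. The pair differed in Xist, an RNA of the X chromosome, with 7969 counts in replicate 1 and 4 in replicate 2.

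Planar cell polarity is the system by which cells of a sheet, and migrating cells and growing axons, align along a common direction. Its core is a set of membrane proteins: the Celsr proteins are very large cadherins with a seven-pass membrane domain that bind each other across cell borders, Fzd3 is a frizzled receptor placed on one side of the cell, and Vangl2 is a four-pass protein placed on the opposite side. In the mouse brain Celsr1 is known from neural tube closure and dividing progenitors, Celsr2 from neurons, dendrites and the cilia of ependymal cells, and Celsr3 together with Fzd3 from the guidance of the large forebrain axon tracts. Teneurins are large single-pass proteins of neurons that bind each other and the latrophilin receptors (Adgrl1 to Adgrl3) across cell contacts, and they are known from the matching of axons with their target cells and of synaptic partners.

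Transcripts of all 9 genes are long. The longest coding transcript, per the GENCODE annotation on the mouse assembly GRCm38, ran from 6528 bases in Vangl2 to 13172 bases in Tenm4, and each was longer than at least 91.3% of those of the tested genes. Base composition divided the members. GC content was 58.8% in Celsr1, 58.4% in Celsr2 and 57.8% in Celsr3, from 51.2 to 53.2% in Vangl2, Tenm2, Tenm3 and Tenm4, and only 42.5% in Tenm1 and 40.3% in Fzd3. These properties are given first because the difference between the fetal genotypes followed them over all genes, as described below. On GRCm38, Celsr1 (ENSMUSG00000016028) lies on chromosome 15 at 85898929 to 86033777, Celsr2 (ENSMUSG00000068740) on chromosome 3 at 108390851 to 108415552 and Celsr3 (ENSMUSG00000023473) on chromosome 9 at 108826320 to 108852969. Vangl2 (ENSMUSG00000026556) lies on chromosome 1 at 172000960 to 172028444 and Fzd3 (ENSMUSG00000007989) on chromosome 14 at 65192449 to 65262463. Of the teneurins, Tenm1 (ENSMUSG00000016150) spans 901.3 kb of the X chromosome, from 42527866 to 43429126. Tenm2 (ENSMUSG00000049336) spans 1229 kb of chromosome 11, from 36006656 to 37235964. Tenm3 (ENSMUSG00000031561) spans 616.3 kb of chromosome 8, from 48227682 to 48843951, and Tenm4 (ENSMUSG00000048078) spans 739.8 kb of chromosome 7, from 96171246 to 96911093.

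The 3 sequences below show how differently composed the DNA in front of these genes is. Celsr2 and Celsr3 are shown because their levels moved apart most within a family, and Tenm4 stands for the teneurins because its first RefSeq start lies next to the GENCODE gene start. The RefSeq start of Celsr3 does not match the start of a GENCODE transcript. Each is the run of 250 bases before the RefSeq transcription start on GRCm38.p6, 5′ to 3′ on the gene's strand. Capitals mark GGGCGG or its reverse complement, the letters of a GC box, which 32.7% of 32851 such windows hold. The windows lie at chr3:108415580-108415829 (minus strand) for Celsr2, chr9:108825795-108826044 (plus strand) for Celsr3 and chr7:96170994-96171243 (plus strand) for Tenm4.
Celsr2: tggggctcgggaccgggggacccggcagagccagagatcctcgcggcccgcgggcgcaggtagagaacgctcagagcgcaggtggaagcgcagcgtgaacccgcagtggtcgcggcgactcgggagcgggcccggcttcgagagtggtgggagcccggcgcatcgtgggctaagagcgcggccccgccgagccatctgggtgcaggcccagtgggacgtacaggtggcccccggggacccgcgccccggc
Celsr3: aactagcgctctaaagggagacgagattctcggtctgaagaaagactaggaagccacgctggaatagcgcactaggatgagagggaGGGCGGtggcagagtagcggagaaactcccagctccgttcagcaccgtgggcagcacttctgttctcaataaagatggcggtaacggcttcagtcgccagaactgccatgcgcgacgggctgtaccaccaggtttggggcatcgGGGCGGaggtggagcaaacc
Tenm4: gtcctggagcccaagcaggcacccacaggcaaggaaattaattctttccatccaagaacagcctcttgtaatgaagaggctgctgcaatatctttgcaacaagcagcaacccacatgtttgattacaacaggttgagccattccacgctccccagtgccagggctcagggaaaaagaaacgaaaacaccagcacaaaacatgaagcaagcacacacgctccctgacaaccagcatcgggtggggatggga

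The Celsr2 window was 75.2% GC with 32 CpG dinucleotides, a GC content above that of 96.1% of all windows, and held no GGGCGG. Celsr3 had 58% GC, 17 CpG and 2 matches. Tenm4 had 50.8% GC, 4 CpG and no match, against a median of 52.4% GC and 6 CpG over all windows. RefSeq windows were matched for 7 of the 9 members, without Celsr1 and Fzd3. The listed starts of Vangl2, Tenm1, Tenm2 and Tenm3 lie 1.15, 154, 292 and 169 kb inside the GENCODE gene, so their windows are not compared here.

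The libraries held 14110031 to 20833397 counts, with 14110031 to 15245283 in the KO fetuses and 19414747 to 20833397 in the WT fetuses, so that depth and genotype cannot be told apart. Cav1 had 218 to 367 counts in the WT libraries and at most 5 in any KO library, and no library went against its genotype label. Markers of neurons were present in every library, and those of oligodendrocytes, summed over 6 genes, went from at most 94 CPM (counts normalised to library size) in the fetal libraries to at least 13288 at week 70. WT replicate 1 stood apart in connective tissue: 6 markers of fibroblasts and meninges summed to 4404 CPM there, against 290 and 491 in the other WT libraries and 56.1 to 124 in the KO fetuses. Without that library the log2 fold changes of the 9 genes between the genotypes moved by at most 0.06. The members themselves held 207 to 8780 counts per library.

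**Figure D1:**
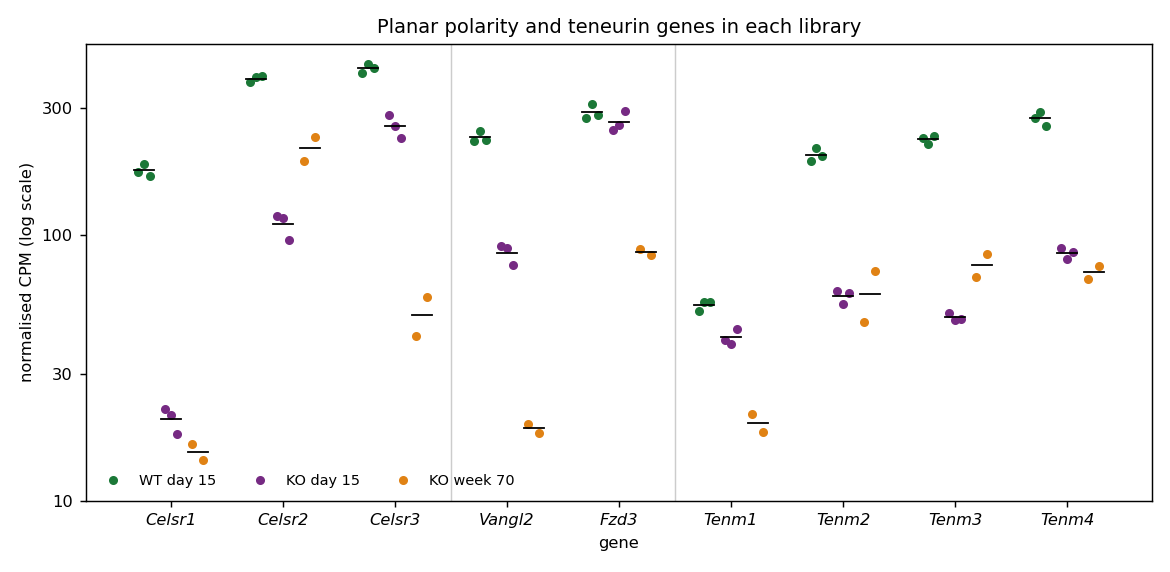
Normalised CPM of the 9 genes (log axis) in each of the 8 libraries, as points, with the mean of each group as a bar. On this scale, which has no length and GC correction, WT day 15 lies above both KO groups for every gene except Fzd3, whose fetal libraries lie at 273 to 309 CPM in WT and at 248 to 291 in KO.

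At day 15, 8 of the 9 genes were lower in KO than in WT brain and none was higher, although Celsr3 turned higher when transcript length and GC content were corrected for. Celsr1 differed most, with 174 ± 9.29 CPM in the WT libraries against 20.3 ± 2.28 in KO (SD, n = 3 per group). Fzd3 did not pass the threshold without the length and GC correction. The 8 genes passed an adjusted p of 0.05 in edgeR, a test fitted on all 19147 tested genes, of which 62.6% passed, 32.5% lower and 30.1% higher in KO. As numbers these were 6225 lower and 5768 higher, and with upper-quartile scaling 4915 lower and 7627 higher, which shifted the median of all genes from 0.03 to 0.20. In 8 of the 9 genes CPM did not overlap between the genotypes, which held for 68.3% of all tested genes. Because these values were among those in view when the genes were listed, nothing is read from these counts. The median log2 fold change was -1.64 over the 9 genes and 0.03 over all tested genes. In whole brain, fewer cells of a type and less RNA per cell cannot be told apart.

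Among the Celsr cadherins, Celsr1, the member of progenitors, stood at 172, 185 and 167 CPM in WT replicates 1 to 3, at 22.2, 21.1 and 17.8 in KO fetal replicates 1 to 3, and at 16.3 and 14.3 in the week 70 replicates 1 and 2. Every KO library, fetal or old, lay far below the lowest WT library. The edgeR log2 fold change was -3.06 (SE 0.0843) between the fetal genotypes, a value below that of all but 0.167% of tested genes. From day 15 to week 70 within KO it was -0.51 (SE 0.143), a smaller step than that between the fetal genotypes. With the length and GC correction the steps were closer, at -1.91 between the genotypes and -1.37 between the ages.

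Celsr2, the member of neuronal dendrites and ependymal cilia, stood at 373, 391 and 393 CPM in WT, at 118, 115 and 95.2 in KO fetuses, and at 190 and 232 at week 70. The 3 groups were separate, with the old KO brains between the WT and KO fetuses. Its log2 fold change was -1.78 (SE 0.0817) between the genotypes and 0.85 (SE 0.116) between the ages. With the length and GC correction these were -0.64 and -0.01, the latter not called.

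Celsr3, the member of axon tracts, stood at 403, 438 and 422 CPM in WT, at 282, 256 and 231 in KO fetuses, and at 41.6 and 58.4 at week 70. The groups were again separate, but in another order, with the old brains lowest. The log2 fold change was -0.68 (SE 0.0766) between the genotypes, a sign that the length and GC correction reversed, and -2.46 (SE 0.151) between the ages.

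The makeup of the Celsr family differed in all 3 groups. Expressed as counts per kilobase of exon, a scale on which genes can be compared and from which library scaling drops out, Celsr1, Celsr2 and Celsr3 made up 18.8 ± 0.716%, 39.8 ± 0.757% and 41.4 ± 0.364% of the family in WT fetuses (SD, n = 3). In KO fetuses the shares were 5.66 ± 0.106%, 29.1 ± 0.945% and 65.2 ± 1.05% (SD, n = 3), so Celsr3 held most of the family. At week 70 they were 5.92 ± 1.4%, 76.8 ± 0.26% and 17.3 ± 1.66% (SD, n = 2), with Celsr2 in that place. The log2 ratio of Celsr2 to Celsr3 went from -0.06 ± 0.0341 in WT fetuses through -1.16 ± 0.0697 in KO fetuses (SD, n = 3 each) to 2.16 ± 0.143 at week 70 (SD, n = 2). The family's summed level was 84.2 ± 2.8, 32.6 ± 3.32 and 23.8 ± 3.44 CPM per kilobase in the same order of groups. This sum carries no length and GC correction, and its fall between the genotypes depends on it. With that correction the genotype log2 fold changes of Celsr1, Celsr2 and Celsr3 went from -3.06, -1.78 and -0.68 to -1.91, -0.64 and 0.41.

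**Figure D2:**
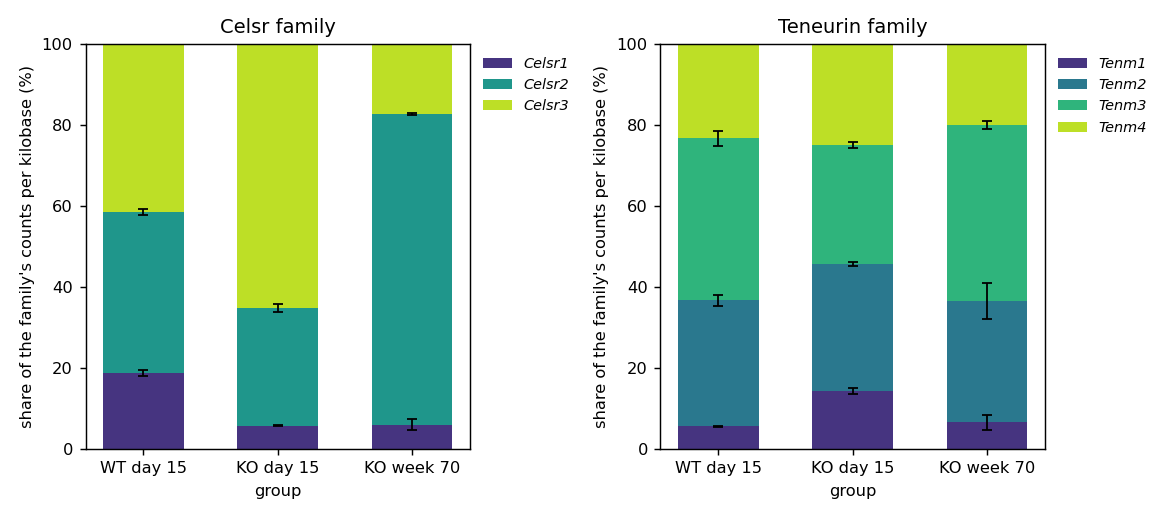
Mean share of each member in its family's counts per kilobase of exon (percent) in the 3 groups, with the SD over libraries (n = 3, 3 and 2) drawn at the top of each segment except the uppermost. In the Celsr family Celsr3 holds 65.2% in KO fetuses and Celsr2 holds 76.8% at week 70, while in the teneurin family Tenm2 stays between 29.9 and 31.5%.

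The 2 other core polarity genes differed from each other, by an amount that depended on the length and GC correction. Vangl2, the four-pass partner, stood at 225, 245 and 226 CPM in WT, at 90.4, 89.3 and 76.9 in KO fetuses, and at 19.4 and 18 at week 70. It stepped down in both comparisons with no overlap, with log2 fold changes of -1.40 (SE 0.0747) between the genotypes and -2.29 (SE 0.11) between the ages. With the length and GC correction these were -0.58 and -3.03.

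Fzd3, the receptor, stood at 273, 309 and 282 CPM in WT, at 248, 257 and 291 in KO fetuses, and at 88.4 and 84.1 at week 70. Its fetal groups overlapped, with a log2 fold change of -0.08 (SE 0.0811), or 0.09 under upper-quartile scaling, that did not pass the threshold. With the length and GC correction the genotype value was -0.27, and passed. The old brains were lower, at -1.72 (SE 0.104), or -0.28 with the length and GC correction. The log2 ratio of Vangl2 to Fzd3 per kilobase went from 0.56 ± 0.029 in WT to -0.76 ± 0.252 in KO fetuses (SD, n = 3 each) and -1.33 ± 0.0285 at week 70 (SD, n = 2). This ratio carries no length and GC correction. With it the difference of their log2 fold changes went from -1.32 to -0.31 between the genotypes. Between the ages it went from -0.57 to -2.74.

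Of the teneurins, Tenm3, known from the matching of hippocampal and visual projections, stood at 230, 219 and 235 CPM in WT, at 50.6, 47.7 and 48.3 in KO fetuses, and at 69.2 and 84.9 at week 70. The KO fetuses were lowest. The log2 fold change was -2.18 (SE 0.0578) between the genotypes, the lowest in the family, and 0.56 (SE 0.102) between the ages, the latter not called with the length and GC correction, at 0.18.

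Tenm2 stood at 189, 212 and 197 CPM in WT, at 61.2, 54.9 and 60.3 in KO fetuses, and at 46.9 and 73.2 at week 70. The log2 fold change between the genotypes was -1.72 (SE 0.0704), or -0.88 with the length and GC correction. The old replicates lay on either side of the fetal KO values, and the age difference of -0.07 (SE 0.157) did not pass the threshold, and was 0.03 when all 8 libraries were fitted together. The age difference was -0.42 without week 70 replicate 2, and 0.23 without week 70 replicate 1. With the length and GC correction and every library kept it was -0.49, and passed. Over the alternatives that carried the correction it ran from -0.78 to -0.26.

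Tenm4, known from oligodendrocyte maturation and from tremor in mice and people, stood at 275, 288 and 256 CPM in WT, at 89.2, 80.8 and 85.9 in KO fetuses, and at 68.2 and 76.3 at week 70. Without the length and GC correction the step between the genotypes, -1.64 (SE 0.068) on the log2 scale, was far larger than that between the ages, -0.34 (SE 0.0914). With it the 2 steps were closer, at -0.82 and -0.57. Tenm4 passed the threshold at both steps and its groups did not overlap.

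Tenm1, the X-linked member, was the lowest of the family at 51.8, 55.6 and 56 CPM in WT, 40.2, 39 and 44.2 in KO fetuses, and 21.2 and 18.1 at week 70. Its genotype difference was small, with a log2 fold change of -0.37 (SE 0.0727), and its age difference was -1.17 (SE 0.118), which the length and GC correction took to -0.06, not called. Xist, the RNA that silences an X chromosome, had 54531 counts or more in the fetal libraries, whereas week 70 replicate 1 held 7969 and replicate 2 held 4. The lower Tenm1 value at week 70 was in replicate 2, and the part of sex in it was not tested. Reads of Tenm1 could include those of Sh2d1a, a gene on the opposite strand that overlaps 8.25% of its exon bases, but Sh2d1a held at most 3 counts in any library.

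Summed over the teneurin family, the level was 55.7 ± 0.923 CPM per kilobase for WT fetuses, 16.3 ± 0.695 for KO fetuses (SD, n = 3 per group) and 17.3 ± 2.85 at week 70 (SD, n = 2). Tenm3 made up 40 ± 1.96% in WT, 29.4 ± 0.789% in KO fetuses and 43.6 ± 0.905% at week 70, and Tenm1 made up 5.51 ± 0.187%, 14.2 ± 0.775% and 6.54 ± 1.81%. Tenm2 and Tenm4 lay within 29.9 to 31.5% and 20 to 24.9% as group means. Per kilobase of the longest coding transcript instead, Tenm4 held 29.4, 30.7 and 25.5% in the same order of groups, and Tenm2 28.5, 28.2 and 27.6%. In the fetal groups Tenm4 thus lay below Tenm2 per kilobase of exon and above it on this other scale. These levels and shares carry no length and GC correction, and the order of Tenm1 between the KO groups depends on it. The log2 fold change of Tenm1 by age was lower than that of Tenm2 and Tenm4 without the correction (differences of -1.10 and -0.83). With the correction it was higher (0.43 and 0.51).

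Ordered by counts per kilobase of exon, Celsr3 (34.9), Celsr2 (33.5) and Vangl2 (33.2 CPM per kilobase) were highest in WT fetuses and overlapped as neighbours in that order. The place of Tenm4 among the teneurins depends on the length used, as given above. Fzd3 and Tenm3 followed with overlap, then Tenm2 and Celsr1 with overlap, then Tenm4 and, apart, Tenm1 at 3.07. In KO fetuses Celsr3 and Fzd3 led with overlapping values of 21.3 and 20.7, and Celsr1 was last at 1.85. At week 70 Celsr2 led alone at 18.3, Tenm3 and Fzd3 overlapped at 7.53 and 6.74, Tenm2, Celsr3 and Tenm4 overlapped as neighbours between 5.23 and 3.44, and Vangl2, Celsr1 and Tenm1 were last. Celsr3 thus went from rank 1 in both fetal groups to rank 5 at week 70, and Celsr2 from rank 4 in KO fetuses to rank 1. These levels and ranks carry no length and GC correction, and no ranks were computed on corrected values. With the correction the age log2 fold change of Celsr2 went from 0.85 to -0.01, and that of Fzd3 from -1.72 to -0.28. The order between groups can thus depend on it.

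The age comparison, within KO, called 8 of the 9 genes: Celsr2 and Tenm3 were higher at week 70, which the length and GC correction ended, and the other 6 called genes were lower, of which Tenm1 was not called with it. Over all 20000 genes tested 82% passed, 44.4% lower and 37.6% higher, and the members' share is close to that. Groups did not overlap for 8 members, and for 87.9% of all tested genes. The median log2 fold change was -0.51 over the members and -0.19 over all genes. Both comparisons contain the 3 KO fetal libraries, so a low value there enters each with opposite sign, as in Celsr2 and Tenm3.

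The genotype difference depended on transcript composition over all tested genes, with Spearman's rho between the log2 fold change and GC content of -0.47 and with length of -0.39, across genes, which are not independent replicates. Between the ages rho was 0.29 for GC and 0.20 for length. When each library's trend on length and GC was removed in the fit, 25.2% of 19050 genes were called lower and 24.9% higher in KO at day 15. Of the 9 members 8 were then lower and 1 was higher. Celsr1 stayed the lowest at -1.91 (SE 0.0786), followed by Tenm3 at -1.41, Tenm2 at -0.88, Tenm4 at -0.82, Celsr2 at -0.64 and Vangl2 at -0.58. Tenm1 kept its value at -0.36, and Fzd3, at -0.27 (SE 0.0564), now passed the threshold. Celsr3 turned from -0.68 to 0.41 (SE 0.0705) and passed in both directions, so its direction between the genotypes depends on this correction.

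**Figure D3:**
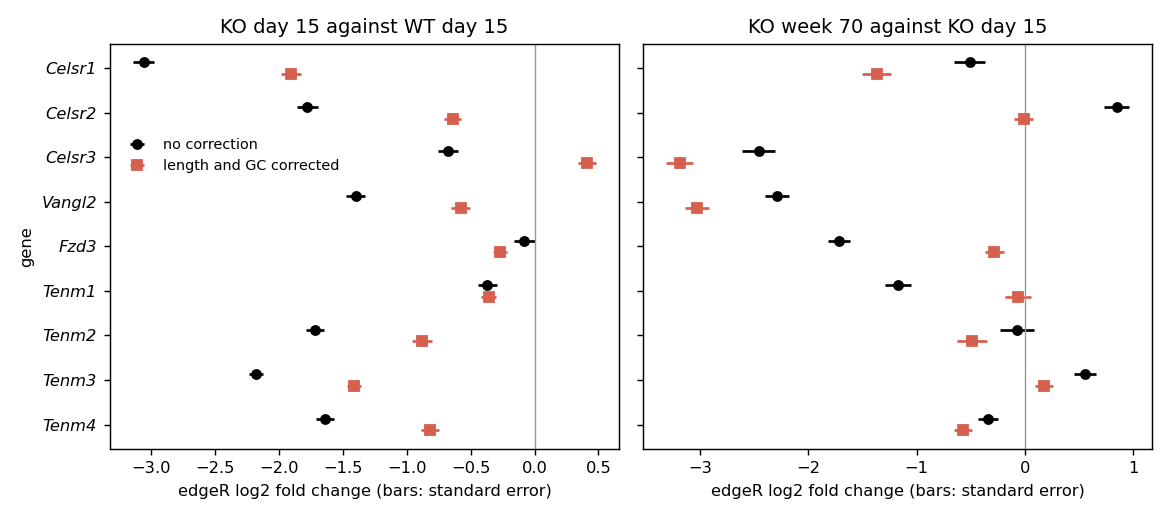
Log2 fold change of each gene from edgeR, with its standard error as a bar, between the fetal genotypes (left) and between the ages within KO (right), without correction (black circles) and with the length and GC correction (red squares). Celsr3 crosses 0 at the left, from -0.68 to 0.41, and Celsr2 moves from 0.85 to about 0 at the right.

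The differences between the Celsr genes did not depend on it, since the 3 transcripts have nearly the same length and GC content. The log2 fold change of Celsr1 was lower than that of Celsr3 by 2.38 without the correction and by 2.32 with it. Celsr2 differed from Celsr3 by -1.10 and -1.05 between the genotypes, and by 3.30 and 3.18 between the ages. Among the teneurins of similar GC the same held between the genotypes: Tenm2 and Tenm4 differed by -0.08 and -0.06, and Tenm3 and Tenm4 by -0.54 and -0.59. Between the ages these differences shrank with the correction, from 0.27 to 0.08 and from 0.90 to 0.75, while that of Tenm2 and Tenm3 was -0.63 and -0.67. Tenm1, whose GC content is lower by 8.7 to 10.8 percentage points than that of the other teneurins, differed from Tenm3 by 1.82 without and 1.05 with the correction between the genotypes, and by -1.72 and -0.24 between the ages. Its age differences from Tenm2 and Tenm4 changed sign, as given above. The gap between Vangl2 and Fzd3, which differ by 12.9 points of GC, shrank from -1.32 to -0.31 between the genotypes and grew from -0.57 to -2.74 between the ages.

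**Figure D4:**
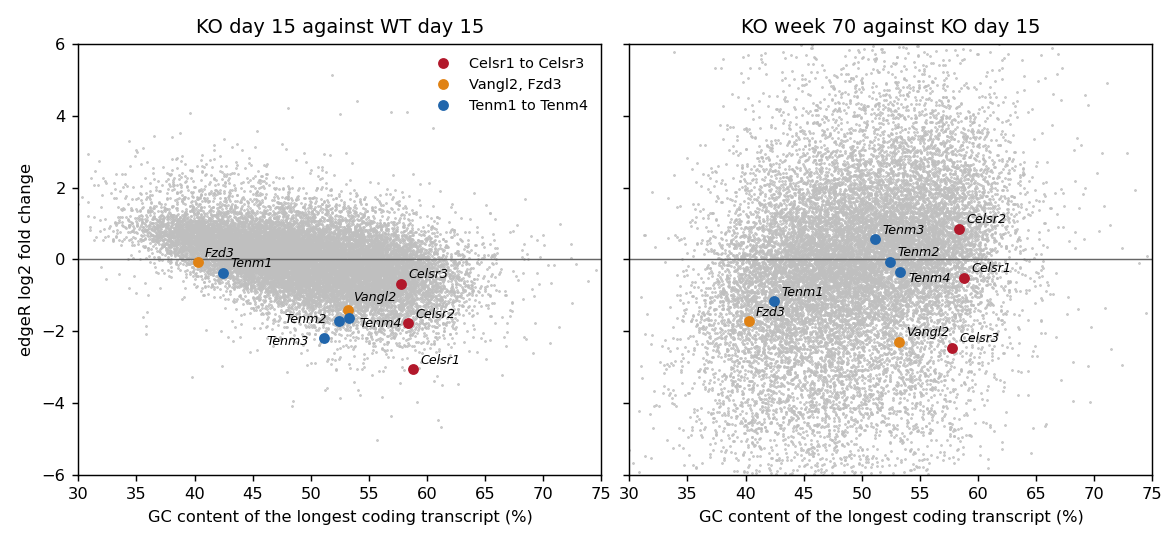
Log2 fold change of every tested gene (grey points) against the GC content of its longest coding transcript (percent), between the fetal genotypes (left) and between the ages within KO (right), with the 9 members in colour and genes beyond the axes not drawn. The grey cloud slopes down to the right in the left panel (rho -0.47), and the 3 Celsr genes share a GC content of 57.8 to 58.8% but lie between -0.68 and -3.06.

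Between the ages, the corrected fit called 36.3% of 19896 genes lower and 42.1% higher at week 70. Of the members 6 were lower, none was higher and 3 were not called. The log2 fold change was -3.19 for Celsr3, -3.03 for Vangl2 and -1.37 for Celsr1. The rises of Celsr2 and Tenm3 were no longer called, at -0.01 (SE 0.0854) and 0.18 (SE 0.0833), nor was the fall of Tenm1, at -0.06 (SE 0.119). Fzd3 stayed lower at -0.28 and Tenm4 at -0.57, and Tenm2, at -0.49, passed.

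The other genes of the pathways are given by lists written from pathway knowledge, but with earlier results of these libraries known, so their counts are a description and no independent evidence of a direction. Of 22 further genes of the polarity core 21 were tested, 17 were called lower and none higher in KO fetuses, where 32.5% of all tested genes were lower and 30.1% higher. With upper-quartile scaling 15 were lower and 2 higher. The list's median log2 fold change was -0.86, beside 0.03 over all genes. The receptor tyrosine kinases Ror2 and Ror1, which bind Wnt5a, were among the largest differences: Ror2 went from 10.8 ± 2.58 to 2.37 ± 0.408 CPM (SD, n = 3 each), a log2 fold change of -2.14 (edgeR adjusted p 7.02e-06; -1.32 when corrected), and Ror1 changed by -1.84 (edgeR adjusted p 0.000162; -1.49 when corrected). Ptk7, a transmembrane regulator of polarity, changed by -1.65 (edgeR adjusted p 1.38e-07), or -0.79 when corrected. Vangl1, the paralog of Vangl2, changed by -0.53 (edgeR adjusted p 0.00777; -0.03 and 0.852 when corrected), and Fzd6, the paralog of Fzd3, by -0.92 (edgeR adjusted p 8.49e-05). With the length and GC correction 9 of the list were lower and 4 higher, with a median of -0.23. Among the 4 were the scaffold gene Scrib and the cytoplasmic mediators Dvl1 and Dvl2, at 0.41, 0.82 and 0.32. They were named after their values were seen, so no p-value is given for them. Scrib and Dvl2 had been lower without the correction, at -0.73 and -0.57.

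By age, 5 of the 21 core genes were called higher and 11 lower, with a median of -0.36, beside 37.6% higher and 44.4% lower over all tested genes. The share called on the list is no larger than that over all genes. Prickle1 and Prickle2, cytoplasmic proteins that act with Vangl2, rose most: Prickle1 from 10.7 ± 0.753 CPM (SD, n = 3) to 110 ± 10.9 (SD, n = 2), a log2 fold change of 3.27 (edgeR adjusted p 8.78e-10), and Prickle2 from 28.7 ± 2.02 CPM (SD, n = 3) to 252 ± 3.16 (SD, n = 2), which is 3.03 in log2 fold change (edgeR adjusted p 4.86e-10). Their rises stayed at 2.77 and 2.98 with the correction, while that of Vangl2, their membrane partner, was -3.03. Fzd6 rose by 1.15 (edgeR adjusted p 6.58e-05) where Fzd3 fell. In the corrected fit 4 core genes were higher and 13 lower, with a median of -0.85.

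The effectors of polarity signalling are the small GTPases, their kinases and the ciliary effectors. Of 13 genes, all tested, 7 were called higher and 4 lower in KO fetuses, with a median of 0.23, beside 30.1% higher and 32.5% lower over all tested genes. Their difference from the core list was not tested. The GTPase genes themselves went both ways: Rhoa changed by -0.68 and Rac1 by -0.65 (edgeR adjusted p 6.81e-06 and 3.13e-06; -0.89 and -0.42 when corrected), whereas Cdc42 changed by 0.64 (edgeR adjusted p 4.18e-06), a value that was 0.00 after the correction. With it 9 were higher and 3 lower, with a median of 0.27. By age 5 were higher and 7 lower with a median of -0.25, led by Daam2, a formin, at 2.47 (edgeR adjusted p 1.07e-09), and Rock1, a kinase activated by Rhoa, at -2.04 (edgeR adjusted p 4.42e-08; -1.09 when corrected). The corrected fit gave 6 higher and 5 lower by age, with a median of 0.36.

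The Fat and Dachsous cadherins, a second polarity system of very large adhesion proteins, were lower in KO fetuses in all 7 genes, with a median of -1.43, beside 32.5% lower over all tested genes. Fat1 changed by -1.62 (edgeR adjusted p 2.1e-08) and Fat4 by -1.61 (edgeR adjusted p 2.07e-08), and Fat2, whose highest group mean was 2.94 CPM, by -1.85 (edgeR adjusted p 0.000714). When corrected these were -0.96, -1.04 and -1.12. Dchs1, the ligand of Fat4, went from 374 ± 4.54 to 135 ± 13.5 CPM (SD, n = 3 each), a log2 fold change of -1.43 (edgeR adjusted p 8.36e-08) that was -0.28 (edgeR adjusted p 0.00216) when corrected. In the corrected fit 6 were lower and none higher, with a median of -0.38. By age 5 fell and Fjx1, a Golgi kinase of the Four-jointed type, rose, with a median of -2.15 (-1.34 corrected, also with 5 lower and 1 higher). Dchs1 and Fat4 changed most, with log2 fold changes of -3.10 and -3.07 (edgeR adjusted p 1.64e-08 and 1.21e-09).

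Of 10 teneurin partners, 7 were called lower and none higher in KO fetuses, with a median of -0.57, beside 32.5% lower and 30.1% higher over all tested genes. With upper-quartile scaling 5 were lower and 1 was higher. The latrophilins differed among themselves: Adgrl1 went from 606 ± 25.1 to 242 ± 28.8 CPM (SD, n = 3 each), a log2 fold change of -1.29 (edgeR adjusted p 4.44e-07), and Adgrl3 changed by -0.84 (edgeR adjusted p 1.33e-06), while Adgrl2 stood at 350 ± 17.9 and 344 ± 11.2 CPM (edgeR adjusted p 0.859). In the corrected fit Adgrl1 was at -0.10 (edgeR adjusted p 0.274), Adgrl3 at -0.43 and Adgrl2 at 0.38 (edgeR adjusted p 0.000323 and 0.000386). The largest differences were in Dag1, which encodes dystroglycan, at -2.40 (edgeR adjusted p 1.41e-08), and Unc5b, a netrin receptor, at -2.11 (edgeR adjusted p 1.51e-06), at -1.66 and -1.06 when corrected. Over the list the corrected fit called 5 lower and 2 higher, with a median of -0.20. By age 4 were called higher and 4 lower with a median of 0.21 (4 and 2, and 0.15, when corrected), among them Unc5b at 3.08, Adgrl2 at -2.29 and Dag1 at 1.91 (edgeR adjusted p 5.3e-08, 6e-09 and 2.79e-08), which were 1.88, -2.33 and 1.19 when corrected.

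**Figure D5:**
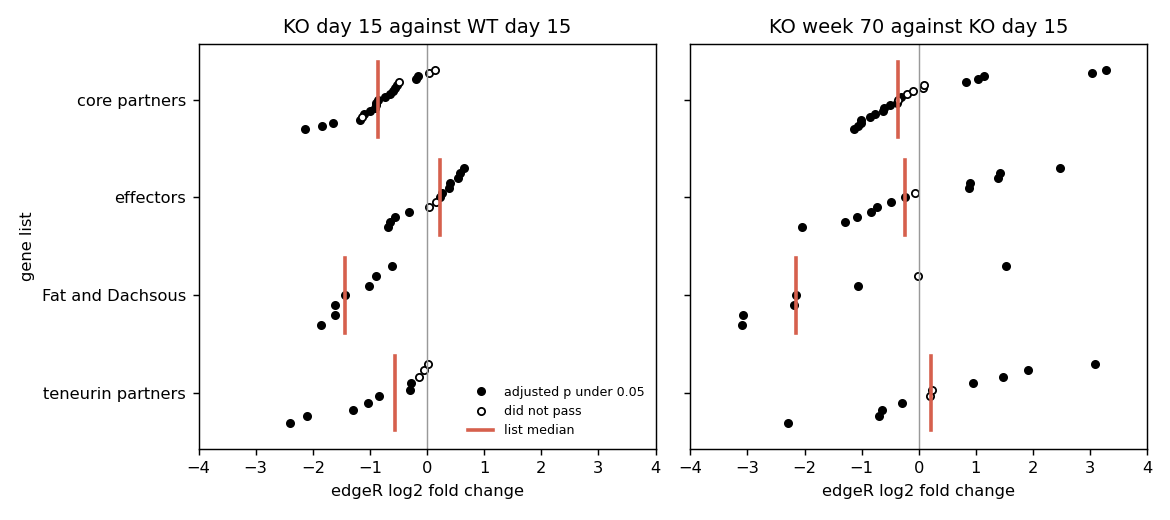
Log2 fold change of each tested gene on the 4 pathway lists between the fetal genotypes (left) and between the ages within KO (right), filled where the edgeR adjusted p is under 0.05, with the list median in red. At the left no core partner, Fat or Dachsous gene or teneurin partner is called higher (under upper-quartile scaling 2 core partners and 1 teneurin partner are), and the effectors lie on both sides of 0 with a median of 0.23.

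Markers of several cell types also differed between the groups, in both directions. Their calls and sums carry no length and GC correction. Over all tested genes 32.5% were called lower and 30.1% higher in KO fetuses. By age 44.4% were called lower and 37.6% higher at week 70. In KO fetuses 7 of 8 radial glia markers were called lower and 1 higher (median log2 fold change -0.83), and their summed level was 1436 to 1487 CPM in WT and 1189 to 1296 in KO. All 5 markers of intermediate progenitors were lower (median -1.31), at 376 to 435 against 149 to 167 CPM. Of 8 neuron markers 5 were lower and 2 higher (median -0.54), at 3874 to 4383 against 3040 to 3134 CPM. No marker of these 3 lists was at 0 in every library of a group. Markers of endothelium were lower in 5 of 6 genes (median -1.34), at 153 to 216 against 49.8 to 61.6 CPM. Erythroid markers went the other way, with all 5 higher in KO (median 2.25), at 821 to 934 against 3001 to 3707 CPM. Of 5 ependyma markers 3 were tested and 2 were lower, at 25.9 to 29.6 against 9.97 to 11.8 CPM. By week 70 the neuron markers stood at 8683 to 9037 CPM with 6 of 8 higher, those of oligodendrocytes were all 6 higher, and those of intermediate progenitors stood at 32.7 to 70.2 CPM with 4 of 5 lower. All 5 markers of astrocytes, all 5 of microglia and all 6 of endothelium were higher at week 70, and all 5 erythroid markers lower. The old libraries stood apart from each other in choroid plexus, whose 4 markers summed to 65.5 CPM in replicate 1 and 2327 in replicate 2, against 312 to 429 in the fetal libraries. The part of cell composition in the values of the 9 genes was not tested.

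Without the length and GC correction, the patterns of the 9 genes over the 8 libraries followed the families only in part. As Pearson's r of log2 (CPM + 1), which the 3 groups dominate, Celsr3, Vangl2, Fzd3 and Tenm1 correlated with each other at 0.91 to 0.98. Their corrected log2 fold changes by age were unlike, at -3.19, -3.03, -0.28 and -0.06, and no correlation was computed on corrected values. Celsr2, Tenm2, Tenm3 and Tenm4 correlated at 0.82 to 0.98, the teneurins among them at 0.93 to 0.98, and Celsr1 lay nearest to Tenm4 at 0.99. Celsr2 and Celsr3 correlated at 0.25, and Celsr2 and Fzd3 at 0.04. Among 12817 other genes with a mean of at least 50 counts, the most similar to Celsr1 were Ubap2 (r 0.9985) and Scrt2 (0.9984), to Celsr2 Dcaf7 (0.9984) and Ttyh3 (0.9982), to Celsr3 Cpsf7 and Efna2 (0.9987 each), to Vangl2 Tnrc6c (0.9995) and Zbtb5 (0.9991), and to Fzd3 Cep89 (0.9979) and Eif4g2 (0.9978). Those most similar to Tenm1 were Zbtb10 (0.9962) and Zfp446 (0.9951), to Tenm2 Wdfy3 (0.9983) and Plxna4 (0.9976), to Tenm3 Sptan1 (0.9985) and Lpcat1 (0.9968), and to Tenm4 Spata13 (0.9993) and Eif4ebp2 (0.9990). From 32 to 206 genes reached an r above 0.99 with a member, so these neighbours are a few of many.

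Other genes share little sequence with most members. No run of 50 bases of the Celsr1, Celsr2, Tenm2 or Tenm3 transcript occurs in a transcript of another gene, and at most 0.139% of those of Celsr3, Vangl2 and Fzd3 do. The larger shares, 11% in Tenm1 and 6.81% in Tenm4, are shared with a single gene each that overlaps on the opposite strand. Those genes, Sh2d1a and C230038L03Rik, held at most 3 and 9 counts per library. Gm19744, which overlaps 1.11% of the exon bases of Tenm3, held 20 to 85 counts.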

How the data were processed

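Raw counts of reads per gene, with Ensembl identifiers, were deposited by the authors as 1 table covering all 8 libraries. The submitters' processing notes name FastQC, cutadapt, Trimmomatic, HISAT2 and featureCounts, the package edgeR, and the builds GRCm38 and GRCm39, without their roles. Annotation, strand setting and multimapping rule are not given in the sources used here. Members and gene lists were chosen with earlier results of these data known.

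Groups followed the sample titles. The test was that of edgeR 4.0.16, run in R 4.3.3 (filterByExpr, TMM, quasi-likelihood F-test, two-sided, Benjamini-Hochberg over all genes tested, threshold 0.05), with 6 fetal libraries for genotype and 5 KO libraries for age. Levels are CPM scaled by TMM over all 8 libraries, and standard errors follow from the F statistic. GENCODE M21 on GRCm38 matched 97.3% of identifiers and gave transcript length, GC content (longest coding transcript) and exon length. The length and GC correction takes, for every library, a smooth curve (mgcv 1.9.3) of its departure from the average of each gene, entered as an offset. Named were all 9 members, at most 3 called genes with the largest absolute log2 fold change per pathway list and comparison, receptors or partners of a family described, and per member the 2 genes with the highest correlation; Scrib, Dvl1, Dvl2 and Fjx1 were chosen after their values were seen. On simulated counts in which 200 genes had a log2 change of 1, the edgeR test recovered 94.5% for genotype (19191 genes) and 85.5% for age (19218 genes). Of its calls 5.5% and 2.84% were false. The simulated counts had the same spread setting for all genes, no length or GC trend, and far fewer changed genes than were called in the data. They therefore do not show how the test behaves under those conditions. Alternatives were RLE and upper-quartile scaling, 2 other filters, DESeq2 1.42.0, 1 fit of all libraries, the replicate number as a block, the correction, and each library left out. Replicates of a group differed beyond sampling noise (chi-square per gene at least 3.01).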

Additional observations from a re-analysis of the deposited data

How the results depend on the processing

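With upper-quartile scaling, calls between the genotypes went from 5768 higher and 6225 lower to 7627 and 4915, and Fzd3 to 0.09, still not called. Leaving out 1 library without the correction moved no member by more than 0.09 between the genotypes. The length and GC correction, whose cause was not tested, turned Celsr3 between the genotypes to 0.41 (0.42 with the replicate block, and 0.37, 0.45 and up to 0.50 with 1 library left out as well, a choice made after seeing the data). Between the ages it turned Celsr2 to -0.01 (-0.06 with the block, and -0.13, -0.03, -0.00 and up to 0.06 with 1 library left out), and Tenm1 to 0.11 without week 70 replicate 2. Tenm2 by age was 0.03 with all 8 libraries in one fit, and -0.42 to 0.23 with 1 library left out. In the corrected fit 5 members were called by age without KO day 15 replicate 2 or week 70 replicate 2, against 6 with all libraries, and 7 effectors between the genotypes without KO day 15 replicate 3, against 12 with all libraries. Replicate numbers do not pair the libraries: same-numbered fetal libraries deviated with r of -0.22 to -0.18. With the number as a block, 11185 genes were called between the genotypes and 14876 between the ages, against 11993 and 16390 without it, and 8 members in each. Of all alternative values 549 kept direction and side of the threshold, whatever their size. A further 16 newly passed or grew, 18 no longer passed or, as counts of genes called, shrank, and 17 reversed. The 549 include fold changes that the correction made much smaller. Examples are Celsr2 between the genotypes, from -1.78 to -0.64, and Fzd3 between the ages, from -1.72 to -0.28.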
